A study of Mus musculus with 8 samples.

Results

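The 9 genes described here encode proteins that myoblasts use to hold on to each other and to fuse: *Mymk* (myomaker), the cadherins *Cdh15* and *Cdh2*, the immunoglobulin-type adhesion molecules *Ncam1*, *Vcam1* and *Alcam*, the surface coreceptors *Cdon* and *Boc*, and *Dock1*, an activator of the GTPase Rac. They were taken by symbol from a table of 55401 genes, and each symbol matched 1 gene. In *mdx5cv* tibialis anterior (TA) muscle, 5 of them were higher than in WT past the threshold, and these were *Mymk*, *Cdh2*, *Ncam1*, *Vcam1* and *Alcam*. *Cdh15*, *Cdon*, *Boc* and *Dock1*, the 4 with the most reads per kb of exon in WT muscle, differed by log2 fold changes of 0.31 to 0.38, which did not reach the threshold.

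Skeletal muscle repairs itself through satellite cells, resident stem cells that give rise to myoblasts. Myoblasts recognize each other through cadherins and immunoglobulin-type adhesion molecules, remodel actin at the contact through Rac, and merge their membranes with the muscle-specific fusogens myomaker and myomixer. *Cdh15* (M-cadherin), *Vcam1* and *Ncam1* also mark satellite cells. *Ncam1* reappears on regenerating and denervated fibers, and *Vcam1*, *Alcam* and *Cdh2* are made by several other cell types as well.

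The comparison asks how the transcriptome of dystrophic muscle differs from that of WT muscle. Bulk RNA-seq was performed on whole TA muscles of mice at 6 mo of age, with 4 muscles labelled WT and 4 labelled *mdx5cv*, all on the strain labelled C57/Bl6 (C57BL/6J in the study's methods). The *mdx5cv* mouse carries a mutation in *Dmd*, the dystrophin gene, in every cell, and is used as a model of Duchenne muscular dystrophy. RNA was isolated with Trizol, and libraries were made with a TruSeq stranded total RNA kit, which removes ribosomal RNA. Neither a batch nor the animal behind each muscle is given in the labels, so that p-values measure the spread between these samples. In bulk tissue, a smaller number of cells of a type and less RNA per cell cannot be told apart.

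Values are normalized counts, that is, reads per gene divided by a size factor for each muscle. Recovered reads ranged from 13862559 to 14921057 in WT and from 13175524 to 14502624 in *mdx5cv*. *Dmd* itself was lower without overlap, at 6954 ± 857 normalized counts against 3964 ± 388 (SD, n = 4, WT first), with a log2 fold change of -0.81 (SE 0.12, limma adjusted p = 0.000177). The test was limma on log2(normalized count + 1), a scale that understates the change of low genes, and it took in 13677 genes whose mean over the 8 muscles was 10 or more. A gene passed the threshold with an adjusted p under 0.05 and a log2 fold change of 1 or more in either direction. It was passed by 1414 higher and 447 lower genes, or by 2255 and 209 when each muscle was scaled to equal totals. Under equal totals the median log2 fold change over all genes went from 0.00 to 0.36, which bears on every small difference given here. Of the cell type markers, those of mature fast fibers were abundant in every muscle, as fits the labelled tissue, with summed normalized counts of 863038 to 1056640 in WT and 618230 to 932830 in *mdx5cv*.

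All 9 genes passed the filter and were tested, and 8 of them had a WT mean of at least 10. The exception was *Mymk*, which entered the test through the *mdx5cv* muscles alone and could therefore only be higher there. Among all genes tested, 10.3% were higher past the threshold and 3.27% were lower, against 5 and 0 of the 9 genes. By adjusted p alone, 20.9% of all genes were higher, and 6 of the 9 genes were, with *Cdon* the addition. The groups did not overlap, with *mdx5cv* higher, in 20.3% of all genes and in 6 of the 9. All 9 fold changes were above 0, in edgeR and DESeq2 as well. The median log2 fold change of the 9 genes was 1.57. The plot of normalized counts per muscle shows all of these values.

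**Figure D1:**
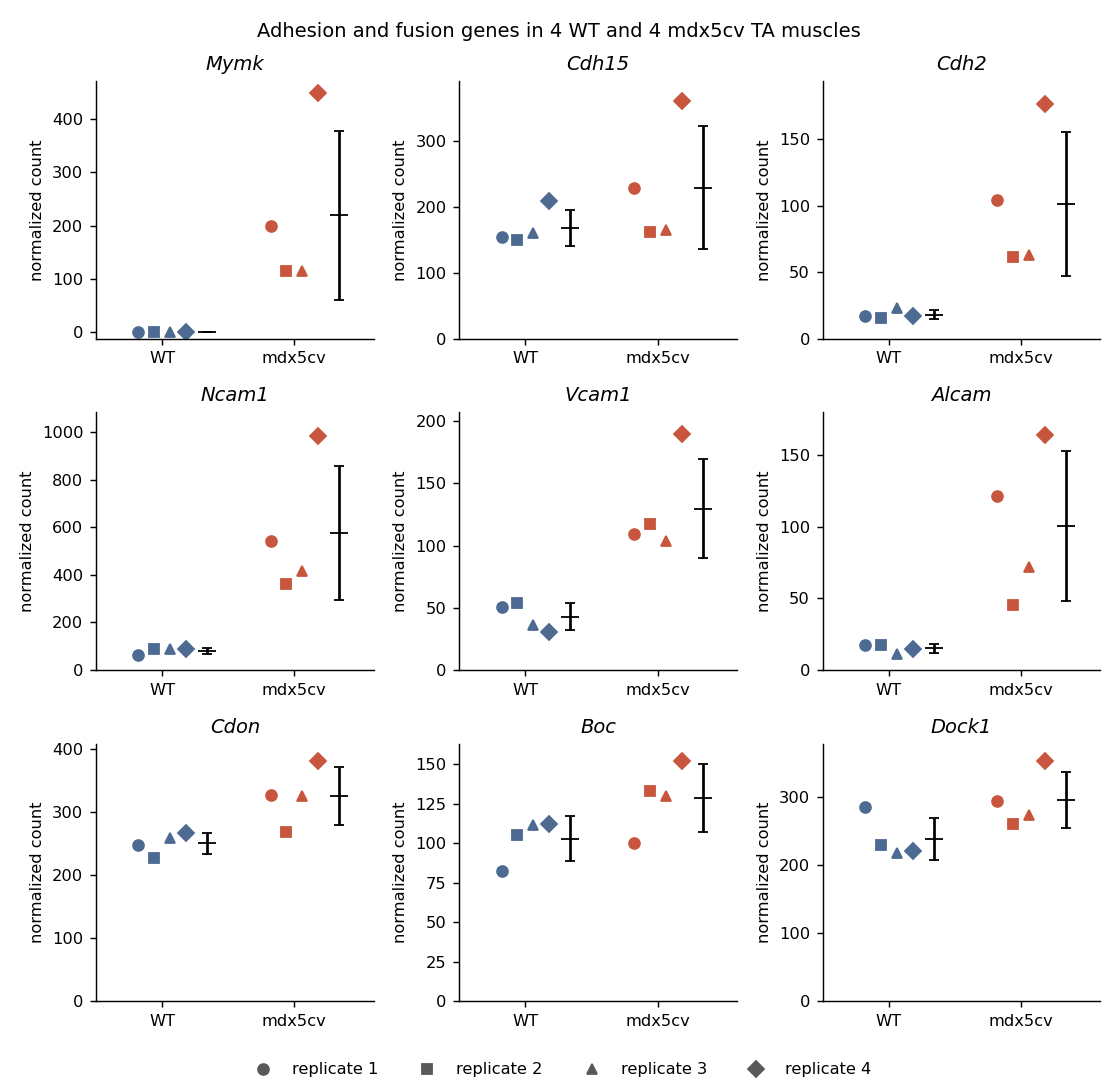
Normalized count of each adhesion and fusion gene (y axis, linear, from 0, and from below 0 for *Mymk*) in 4 WT (blue) and 4 *mdx5cv* (red) TA muscles. The marker shape gives the replicate and the black bar the mean ± SD of the group. *Mymk*, *Cdh2*, *Ncam1*, *Vcam1*, *Alcam* and *Cdon* show no overlap between the groups, and *mdx5cv* replicate 4 is the highest muscle in every panel.

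Promoter sequence was at hand for 4 of the 9 genes, and 2 windows are printed because they belong to a gene that rose (*Alcam*) and to one that did not pass the test (*Cdh15*). Each covers 300 bases, from 250 before to 50 after the RefSeq start, on GRCm38.p6 and in the direction of transcription, with the letters CANNTG in capitals. CANNTG is the E-box core, the motif that myogenic basic helix-loop-helix factors such as MyoD recognize. The windows are chr16:52453032-52453331 on the minus strand for *Alcam* and chr8:122848124-122848423 on the plus strand for *Cdh15*.
Alcam: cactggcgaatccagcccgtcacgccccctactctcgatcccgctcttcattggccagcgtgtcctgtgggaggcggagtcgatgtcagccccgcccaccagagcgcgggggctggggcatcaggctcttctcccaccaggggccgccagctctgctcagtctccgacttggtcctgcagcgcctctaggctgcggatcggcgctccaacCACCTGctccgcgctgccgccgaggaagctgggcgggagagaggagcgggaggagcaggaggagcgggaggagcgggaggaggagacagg
Cdh15: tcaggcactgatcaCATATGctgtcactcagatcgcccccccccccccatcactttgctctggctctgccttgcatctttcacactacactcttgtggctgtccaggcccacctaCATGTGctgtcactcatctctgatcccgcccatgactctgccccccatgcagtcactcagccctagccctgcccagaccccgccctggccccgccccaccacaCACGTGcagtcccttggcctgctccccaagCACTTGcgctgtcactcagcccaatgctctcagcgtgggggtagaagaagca

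*Alcam* held 1 CANNTG match, CACCTG, at position -40 from the start. *Cdh15* held 4 matches, spread from the start of its window to the transcription start. *Dock1* held 1 and *Cdon* held 0. The windows of *Alcam*, *Cdh15* and *Cdon* lie wholly within the GENCODE gene models, and that of *Dock1* spans the start of its model. CANNTG is its own reverse complement in form, so a match on one strand is a match on both. At least 1 match was present in 72.3% of all 32851 RefSeq windows of this length, and CACCTG, counted on both strands, was present in 20.2%. None of the matches in *Cdh15* was CACCTG or CAGCTG, and CAGCTG was present in 16.3% of all windows. The matches are letters in a window, and binding was not measured.

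The fusogen gave the largest fold of the 9. *Mymk* lies on chromosome 2 from 27061636 to 27072179 (minus strand, GRCm38, GENCODE M21) and encodes the membrane protein that myoblasts need in order to fuse. Its normalized counts were 0, 0, 0 and 1.06 in WT replicates 1 to 4, and 198, 115, 114 and 448 in *mdx5cv* replicates 1 to 4. The WT muscles held 1 read among them, and the *mdx5cv* muscles held 1024. Relative to the size factors this is 826-fold, with a 95% exact interval of 148 to 32672 that covers counting error only. The log2 fold change was 7.28 (SE 0.44, limma adjusted p = 3.75e-07), and it ranged from 4.26 with a pseudocount of 10 to 9.97 with a pseudocount of 0.1, so its size rests on the pseudocount.

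Myomaker works with myomixer, and the fusion list held 13 other genes of the fusion membrane, all tested. Of these, 7 were higher past the threshold and 0 were lower. *Mymx* (myomixer) had 0 reads in WT and 208 in *mdx5cv*, at least 56.0-fold higher against a floor of 3 counts over the WT group (limma adjusted p = 5.28e-06). *Mymx* and *Adam12*, with WT means under 10, entered the test through the *mdx5cv* muscles and could only be higher, and the filter that asks for 10 normalized counts in each muscle left 5 genes called. *Adam12*, a metalloprotease of differentiating myoblasts, went from 6.77 ± 5.47 to 85.6 ± 45.4 (SD, n = 4), with a log2 fold change of 3.53 (SE 0.46, limma adjusted p = 7.03e-05). *Myof* (myoferlin), a ferlin of the myoblast membrane, went from 139 ± 30.2 to 757 ± 336, a log2 fold change of 2.37 (SE 0.24, limma adjusted p = 9.88e-06). The other 4 were the annexins *Anxa1* and *Anxa5*, the tetraspanin *Cd9* and its partner *Ptgfrn*, with log2 fold changes of 2.19, 1.36, 1.58 and 1.29. The call of *Cd9* was lost without WT replicate 2, where its log2 fold change was 0.98 and 6 genes of the list were higher. *Itgb1*, the integrin beta 1 subunit, was higher by adjusted p without reaching the fold, at 0.60 (SE 0.11, limma adjusted p = 0.00122). The median of the list was 1.29, against 0.00 for all genes tested.

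Of the 2 classical cadherins of the myoblast contact, *Cdh2* rose and *Cdh15* did not pass the test. *Cdh2* (N-cadherin, chromosome 18, 16588877 to 16809246, minus strand) had normalized counts of 17.2, 15.4, 23.2 and 16.9 in WT and of 105, 61.3, 63.0 and 177 in *mdx5cv*. Every *mdx5cv* muscle was above every WT muscle, and the lowest of them, replicate 2, was well clear of the highest WT value. The means were 18.2 ± 3.46 and 101 ± 54.0 (SD, n = 4), a log2 fold change of 2.29 (SE 0.30, limma adjusted p = 7.59e-05).

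*Cdh15* (M-cadherin, chromosome 8, 122847966 to 122867397, plus strand) is the cadherin of satellite cells and of the myoblast contact. Its normalized counts were 155, 150.3, 160.3 and 209.7 in WT and 229.8, 162, 166 and 362 in *mdx5cv*. *mdx5cv* replicates 2 and 3 lay within the WT range, and replicates 1 and 4 lay above it. The log2 fold change was 0.38, with a 95% interval of -0.10 to 0.85 (limma adjusted p = 0.193), and it was 0.13 without *mdx5cv* replicate 4. A rise of up to 0.85 on the log2 scale is therefore within the interval.

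The log2 ratio of *Cdh15* to *Cdh2* was taken within each muscle, with 1 added to each normalized count, as for all gene pairs here. Only through that added 1 does it depend on the scaling between muscles. It was 3.10, 3.21, 2.74 and 3.55 in WT and 1.13, 1.39, 1.38 and 1.03 in *mdx5cv*. All 4 *mdx5cv* ratios were below all WT ratios. The difference of the means was -1.92 (SE 0.19, exact permutation test, two-sided, p = 0.0286, the smallest that 4 against 4 muscles can give, adjusted over 5 gene pairs to 0.0714). Of the 5 pairs, 2 reached that smallest p, and after adjustment no pair was under 0.05. Alone, *Cdh2* was without overlap between the groups, as were *Dock5* and *Pax7*, which enter other pairs. The p-values of these ratios are therefore no separate support for the values of the single genes.

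Of 7 other cadherins and catenins, all tested, 1 was higher and 1 was lower. *Cdh11* (cadherin 11), a cadherin of mesenchymal cells, went from 21.4 ± 5.87 to 82.3 ± 40.5 (SD, n = 4), with a log2 fold change of 1.82 (SE 0.30, limma adjusted p = 0.000401). *Cdh4* (R-cadherin) went the other way, from 61.1 ± 17.7 to 2.74 ± 1.36, a log2 fold change of -4.11 (SE 0.36, limma adjusted p = 4.75e-06). Of the 4 catenins, which link cadherins to the cell interior, *Ctnna1* was higher by adjusted p without overlap, at 0.66 (SE 0.15, limma adjusted p = 0.00290), and at 1.02 under equal totals. *Ctnnb1*, *Ctnnd1* and *Jup* had log2 fold changes of -0.17, 0.06 and -0.08 and did not pass the test. The median of the list was 0.06.

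All 3 immunoglobulin-type adhesion molecules rose. *Ncam1* (chromosome 9, 49502136 to 49798925, minus strand), a neural cell adhesion molecule also found on myoblasts and on regenerating or denervated fibers, had normalized counts of 63.0, 88.8, 86.2 and 86.9 in WT and of 542, 363, 417 and 985 in *mdx5cv*. The groups were far apart, and WT replicate 1 was below its group. The means were 81.2 ± 12.2 and 577 ± 282 (SD, n = 4), a log2 fold change of 2.71 (SE 0.25, limma adjusted p = 5.43e-06). *Gm11149*, an antisense gene, shares 417 exon bases with *Ncam1*, 4.81% of its exon length, and the strand setting of the counting is not given in the sources used here.

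*Vcam1* (chromosome 3, 116109949 to 116129688, minus strand), the ligand of integrin alpha 4 beta 1, is made by quiescent satellite cells and by activated endothelium. Its normalized counts were 50.4, 53.7, 36.5 and 30.7 in WT and 109, 117, 104 and 189 in *mdx5cv*. The first 3 *mdx5cv* muscles were close to each other and all 4 were above WT. The means were 42.8 ± 11.0 and 129.8 ± 40.1 (SD, n = 4), a log2 fold change of 1.57 (SE 0.23, limma adjusted p = 0.000151). Its exons share 61 bases (0.688%) with the antisense gene *Gm43109*.

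*Alcam* (chromosome 16, 52248996 to 52454074, minus strand), which binds itself and CD6 on other cells, had normalized counts of 17.2, 17.6, 11.1 and 14.8 in WT and of 121, 45.3, 72.0 and 164 in *mdx5cv*. Its *mdx5cv* muscles were spread more widely than those of *Vcam1*, with replicate 2 the lowest, and none overlapped WT. The means were 15.2 ± 2.99 and 101 ± 52.6 (SD, n = 4), a log2 fold change of 2.51 (SE 0.34, limma adjusted p = 8.57e-05).

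The list of immunoglobulin adhesion partners held 13 genes, of which 10 were tested, 2 were higher and 1 was lower. The filter that asks for 10 normalized counts in each muscle left 0 genes called higher. *Nrcam*, a neuronal adhesion molecule, had a log2 fold change of 2.12 (SE 0.52, limma adjusted p = 0.00554) with overlapping groups, and *Itgb7*, an integrin beta subunit of leukocytes, of 1.62 (SE 0.30, limma adjusted p = 0.000986). *Itga4*, the alpha subunit of the receptor of *Vcam1*, was lower, with normalized counts of 551 ± 29.5 and 282 ± 93.0 (SD, n = 4) and a log2 fold change of -1.02 (SE 0.18, limma adjusted p = 0.000744). This value sits at the fold threshold. It no longer passed under equal totals (-0.66), in edgeR and DESeq2 (-0.96 in both), with a pseudocount of 10 (-0.99), or when 1 of 3 single muscles was dropped, namely *mdx5cv* replicate 3 (-0.84) and WT replicates 4 and 1 (-0.99 and -0.998). The junctional molecules *Jam2* and *Jam3*, which take part in myoblast adhesion, had log2 fold changes of -0.77 (limma adjusted p = 0.00134) and 0.10 (limma adjusted p = 0.727), and that of *Jam3* was -0.09 without *mdx5cv* replicate 4. *Cd6*, the ligand of *Alcam* on T cells, was under the filter, at 0.563 ± 0.650 and 6.99 ± 2.25.

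*Vcam1* was also set against *Pecam1*, which marks endothelial cells. The log2 ratio of *Vcam1* to *Pecam1* was -3.92, -3.62, -4.25 and -4.54 in WT and -1.86, -2.02, -2.18 and -1.06 in *mdx5cv*, without overlap. The difference was 2.30 (SE 0.32, exact permutation test, two-sided, p = 0.0286, adjusted p = 0.0714 over the 5 pairs). *Pecam1* alone had a log2 fold change of -0.73 (SE 0.10, limma adjusted p = 0.000138), without overlap between the groups. With *Vcam1* above and *Pecam1* below WT in every *mdx5cv* muscle, the ratio could only separate the groups. Its p-value therefore adds no support to the values of the single genes.

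*Cdon* and *Boc* encode related surface proteins that bind each other, cadherins and Hedgehog ligands. *Cdon* (chromosome 9, 35421128 to 35507652, plus strand) had normalized counts of 249, 228, 259.8 and 267 in WT and of 328, 269, 326 and 382 in *mdx5cv*. Every *mdx5cv* muscle was above every WT muscle, but replicate 2 was only just above the highest. The log2 fold change was 0.37 (SE 0.12, limma adjusted p = 0.0280), under the fold threshold. Over the alternatives this adjusted p lay between 0.00317 and 0.0791, and it was above 0.05 without *mdx5cv* replicate 1, 3 or 4 (0.0652, 0.0583 and 0.0756), without WT replicate 1, 2 or 3 (0.0611, 0.0562 and 0.0502), with centring on the median (0.0791) and without the variance trend (0.0514).

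*Boc* (chromosome 16, 44485049 to 44558897, minus strand) had normalized counts of 82.5, 105, 112 and 112 in WT and of 100.1, 133, 129.7 and 152 in *mdx5cv*. Replicate 1 of *mdx5cv* lay within the WT range and the others lay above it. The log2 fold change was 0.31, with a 95% interval of -0.03 to 0.66 (limma adjusted p = 0.133). The log2 ratio of *Cdon* to *Boc* ranged from 1.11 to 1.58 in WT and from 1.01 to 1.70 in *mdx5cv*, and the difference of 0.06 (SE 0.17) was within the spread between muscles (exact permutation test, two-sided, p = 0.714, adjusted p = 0.714 over the 5 pairs).

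Of 18 other genes of the coreceptors and the Hedgehog pathway, 15 were tested, 0 were higher (in limma, edgeR and DESeq2) and 1 was lower. By limma adjusted p alone 5 were higher and 3 were lower, and equal totals gave 2 higher and 0 lower past the threshold. *Hhip*, an inhibitor that binds Hedgehog ligands, had a log2 fold change of -1.44 (SE 0.48, limma adjusted p = 0.0278), with normalized counts of 15.7 ± 4.12 and 6.22 ± 4.95 (SD, n = 4) that overlapped, and the call was lost without *mdx5cv* replicate 4 (-1.03), *mdx5cv* replicate 3 (-1.39) or WT replicates 1 or 2 (-1.39 and -1.30), under equal totals (-1.14), with a pseudocount of 10 (-0.70) and in DESeq2 (-1.36). *Neo1* (neogenin), a receptor that acts with *Cdon*, had a log2 fold change of -0.12 (limma adjusted p = 0.355), which was 0.24 under equal totals. *Gas1*, another Hedgehog coreceptor, had 0.45 (limma adjusted p = 0.0497). The 3 Hedgehog ligands were under the filter, with *Shh* at 0 in every muscle, *Ihh* at 0.837 ± 0.559 in WT and 1.74 ± 1.53 in *mdx5cv*, and *Dhh* at 10.5 ± 2.17 and 3.20 ± 1.82 (SD, n = 4), lower without overlap. The median of the list was -0.12.

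*Dock1* (chromosome 7, 134670654 to 135173639, plus strand) encodes a guanine nucleotide exchange factor that, with an Elmo protein, activates Rac during fusion. Its normalized counts were 285, 230.3, 218 and 221 in WT and 295, 261, 275 and 354 in *mdx5cv*. WT replicate 1 was above *mdx5cv* replicates 2 and 3, and the other WT muscles were below all 4. The log2 fold change was 0.31, with a 95% interval of 0.03 to 0.59 before adjustment (limma adjusted p = 0.0750). Without WT replicate 1 it was 0.40 (limma adjusted p = 0.0365), and without *mdx5cv* replicate 4 it was 0.22 (limma adjusted p = 0.197).

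The Dock, Elmo and Rac list held 19 genes, of which 16 were tested, 3 were higher and 1 was lower. *Rac2* and *Dock2*, a Rac GTPase and an exchange factor of blood cells, had log2 fold changes of 2.95 (SE 0.35, limma adjusted p = 3.07e-05) and 2.78 (SE 0.26, limma adjusted p = 5.94e-06). *Dock5*, the closest relative of *Dock1* and an activator of Rac, had 1.27 (SE 0.29, limma adjusted p = 0.00366). *Elmo1*, the partner of *Dock1*, had 0.53 (SE 0.14, limma adjusted p = 0.00901), and *Rac1*, its target, had 0.02 (limma adjusted p = 0.929). *Stab2*, a scavenger receptor of some endothelium, was lower at -1.18 (SE 0.16, limma adjusted p = 0.000120), and at -0.82 under equal totals, short of the fold threshold. The log2 ratio of *Dock1* to *Dock5* was 3.06, 3.40, 3.24 and 2.32 in WT and 1.79, 2.45, 2.26 and 1.68 in *mdx5cv*, a difference of -0.96 (SE 0.30, exact permutation test, two-sided, p = 0.0571, adjusted p = 0.0714).

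**Figure D2:**
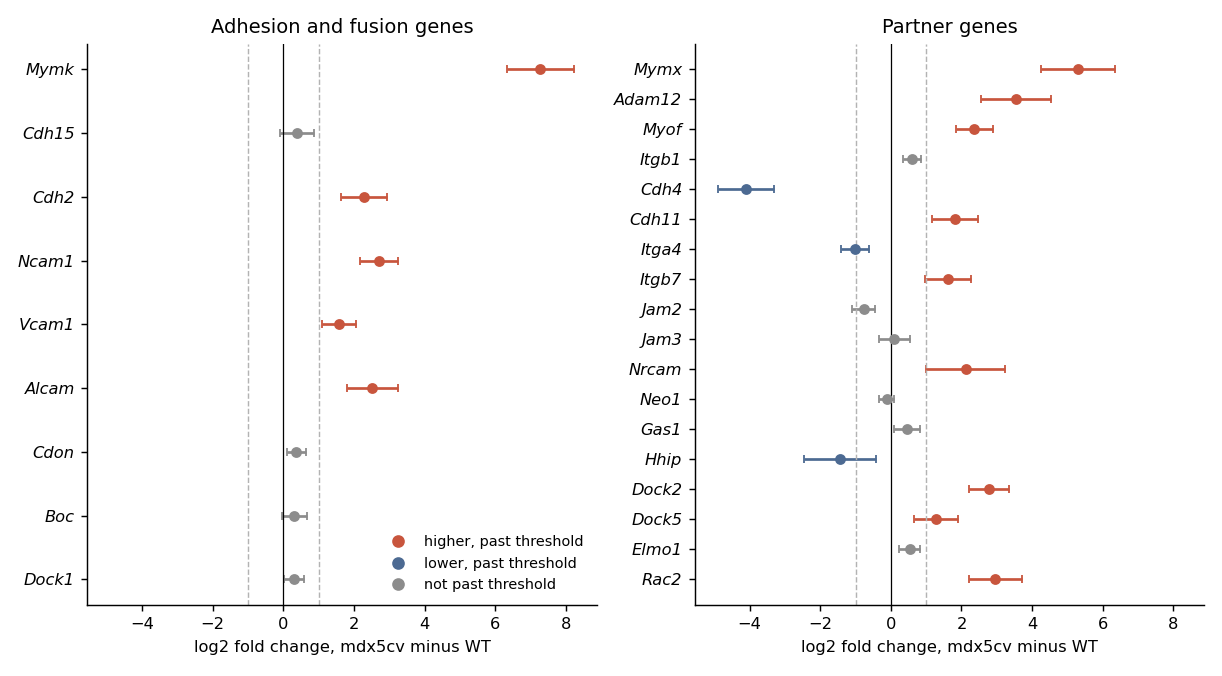
Log2 fold change (x axis, *mdx5cv* minus WT, limma) of the 9 adhesion and fusion genes at the left and of partner genes picked by the naming rule at the right. Points give the estimate, bars the 95% interval, colour the call and dashed lines the fold threshold. *Mymk*, *Cdh2*, *Ncam1*, *Vcam1* and *Alcam* lie beyond the right dashed line, and *Cdh15*, *Cdon*, *Boc* and *Dock1* lie between 0.31 and 0.38. The points of *Mymk* and *Mymx*, with 1 and 0 WT reads, rest on the pseudocount.

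Over all 5 partner lists, 61 of 70 genes were tested, 13 were higher and 4 were lower, with a median log2 fold change of 0.27. Genes with a mean under 10 in one group, such as *Mymx*, *Adam12*, *Nrcam* and *Rac2* in WT or *Cdh4* and *Hhip* in *mdx5cv*, passed the filter through the other group, which fixes their direction. The counts of each list are set beside the 10.3% and 3.27% of all genes given above, and no list was tested as a set. The plot of fold changes shows the members beside the partner genes picked by the naming rule given below, without those named after their values were seen.

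Equal totals raised the log2 fold changes of *Cdh15*, *Cdon*, *Boc* and *Dock1* to 0.73, 0.73, 0.67 and 0.67 (limma adjusted p = 0.0378, 0.00317, 0.0123 and 0.00445), against a median of 0.36 for all genes. Relative to that median the shifts were close to those under the size factors of the authors. None of the 4 reached a log2 fold change of 1 under any alternative. *Mymk*, *Cdh2*, *Ncam1*, *Vcam1* and *Alcam* stayed past the threshold under each alternative in which they were tested, edgeR and DESeq2 on recovered reads included, and *Mymk* was not tested where every muscle had to reach a normalized count of 10.

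Per kb of exon, the 9 genes stood in a different order in the groups. In WT, the means ran from 51.9 normalized counts per kb for *Cdh15* through 32.5 for *Cdon*, 25.6 for *Dock1*, 23.1 for *Boc*, 9.38 for *Ncam1*, 4.83 for *Vcam1*, 2.25 for *Cdh2* and 2.13 for *Alcam* to 0.175 for *Mymk*. The ranges of neighbours in this order overlapped for *Cdon* and *Dock1*, for *Dock1* and *Boc*, and for *Cdh2* and *Alcam*, and were apart elsewhere. In *mdx5cv*, *Mymk* was first at 145 per kb, ahead of *Cdh15* at 70.7, *Ncam1* at 66.6, *Cdon* at 42.3, *Dock1* at 31.7, *Boc* at 28.9, *Vcam1* at 14.6, *Alcam* at 14.1 and *Cdh2* at 12.6. The only neighbours of this order whose ranges did not overlap were *Boc* and *Vcam1*. The plot of levels per length shows both orders.

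**Figure D3:**
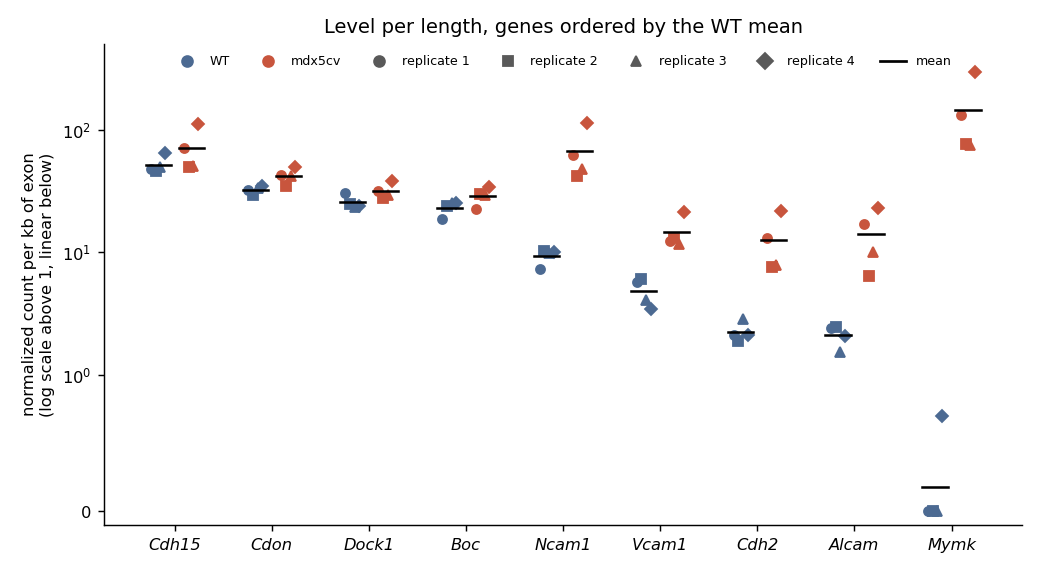
Normalized count per kb of exon (y axis, log scale above 1 and linear below) of the 9 genes, ordered by the WT mean, in WT (blue) and *mdx5cv* (red) muscles, with the marker shape giving the replicate and the black line the mean. *Mymk* is last in WT at 0.175 per kb and first in *mdx5cv* at 145 per kb.

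*mdx5cv* replicate 4 was the highest *mdx5cv* muscle for all 9 genes, whereas 34.7% of all genes tested were highest in it. It exceeded the mean of the other *mdx5cv* muscles by a log2 value of 1.70 for *Mymk*, 1.24 for *Cdh2*, 1.18 for *Ncam1*, 1.15 for *Alcam*, 0.98 for *Cdh15* and 0.78 for *Vcam1*, and by 0.32 to 0.36 for *Cdon*, *Boc* and *Dock1*. Its size factor, 1.25, was the highest of the 8 muscles. *mdx5cv* replicate 2 was the lowest of its group for 6 of the 9 genes. Without replicate 4, the log2 fold changes were 6.86 for *Mymk*, 1.98 for *Cdh2*, 2.42 for *Ncam1*, 1.37 for *Vcam1* and 2.23 for *Alcam*, with limma adjusted p of 8.04e-07, 0.000102, 1.60e-06, 0.000371 and 0.000242.

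Markers of several cell types were higher in *mdx5cv* muscle, as were the 5 adhesion and fusion genes past the threshold. The 6 markers of regenerating fibers (*Myog*, *Myh3*, *Myh8*, *Chrng*, *Tnnt2* and *Mymx*, the last also in the fusion list) were all higher, and *Chrng* and *Mymx*, with 1 and 0 WT reads, could only be higher. Requiring 10 normalized counts in each muscle left 3 of the 6. Their summed normalized count was 126 to 164 in WT and 2263 to 8528 in *mdx5cv*. *mdx5cv* replicate 4 held the 8528, and the other *mdx5cv* muscles reached at most 4945. The median log2 fold change of this list was 4.64, or 4.88 with *Mymx* at its bound and *Chrng* at the lower end of its counting interval. The part of these markers in the values of the 9 genes was not tested.

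The 6 macrophage markers (*Adgre1*, *Cd68*, *Csf1r*, *Itgam*, *C1qa* and *Mrc1*) rose as well, all 6 past the threshold, against 10.3% of all genes tested. *Itgam*, with a WT mean of 3.88, entered the test through the *mdx5cv* muscles and could only be higher. The median of the 6 markers was 2.93 on the log2 scale. Their sum was 327 to 511 in WT and 1625 to 3875 in *mdx5cv*, and replicate 4 was again the highest. Among fibroblast markers, *Col1a1* and *Col3a1* were higher, at 3.13 and 3.09, and the other 4 of the 6 had log2 fold changes of -0.30 to 0.63. Their part in the values of *Vcam1*, *Alcam* and *Cdh2*, which fibroblasts can make, was not tested.

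For satellite cells and myoblasts, 4 of 6 markers were tested and 1 was higher, *Myod1*, at 1.44 (SE 0.20, limma adjusted p = 0.000106). *Myf5* and *Heyl* had log2 fold changes of 0.58 and 0.30 and did not pass (limma adjusted p = 0.118 and 0.176). *Calcr* and *Chrdl2* were under the filter. *Chrdl2* went the other way, from 12.6 ± 5.54 to 3.41 ± 3.11 (SD, n = 4) with overlapping groups. In DESeq2, and with no filter, 1 marker of this list was lower past the threshold. *Pax7*, which defines satellite cells, went from 32.9 ± 7.41 to 64.1 ± 21.4 (SD, n = 4), with a log2 fold change of 0.91 (SE 0.24, limma adjusted p = 0.00925) that did not reach the fold. It passed the fold under equal totals and without *mdx5cv* replicate 1 (1.03), *mdx5cv* replicate 2 (1.03) or WT replicate 4 (1.03). The log2 ratio of *Cdh15* to *Pax7* was 2.34, 2.02, 2.67 and 2.32 in WT and 2.23, 1.73, 1.30 and 1.94 in *mdx5cv*. These ranges overlapped, with a difference of -0.54 (SE 0.24, exact permutation test, two-sided, p = 0.0571, adjusted p = 0.0714). The plot of ratios within muscles shows the 5 pairs.

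**Figure D4:**
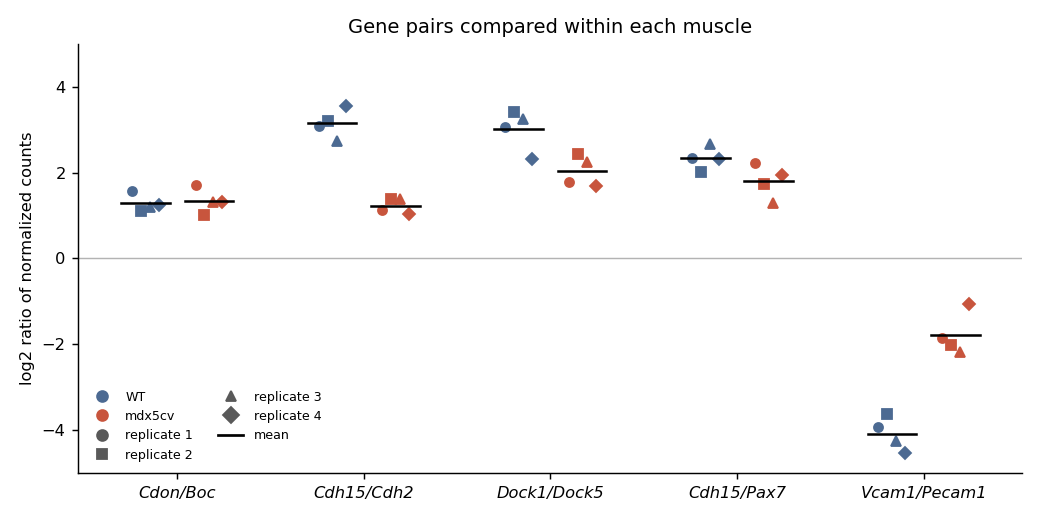
Log2 ratio of the normalized counts of 2 genes within each muscle (y axis) for 5 gene pairs, in WT (blue) and *mdx5cv* (red), with the marker shape giving the replicate and the black line the mean. *Cdh15*/*Cdh2* and *Vcam1*/*Pecam1* are without overlap between the groups, and *Cdon*/*Boc* overlaps.

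The 6 endothelial markers gave 0 calls past the threshold in limma, edgeR and DESeq2, and 5 were lower by limma adjusted p alone, as were 20.1% of all genes tested, with a median log2 fold change of -0.70. The T cell markers were all under the filter, with sums of 4.42 to 5.48 in WT and 22.2 to 48.7 in *mdx5cv*. The 6 markers of mature fast fibers gave 0 calls in these tools, with 2 lower by adjusted p alone, and their sum was lowest in *mdx5cv* replicate 4.

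**Figure D5:**
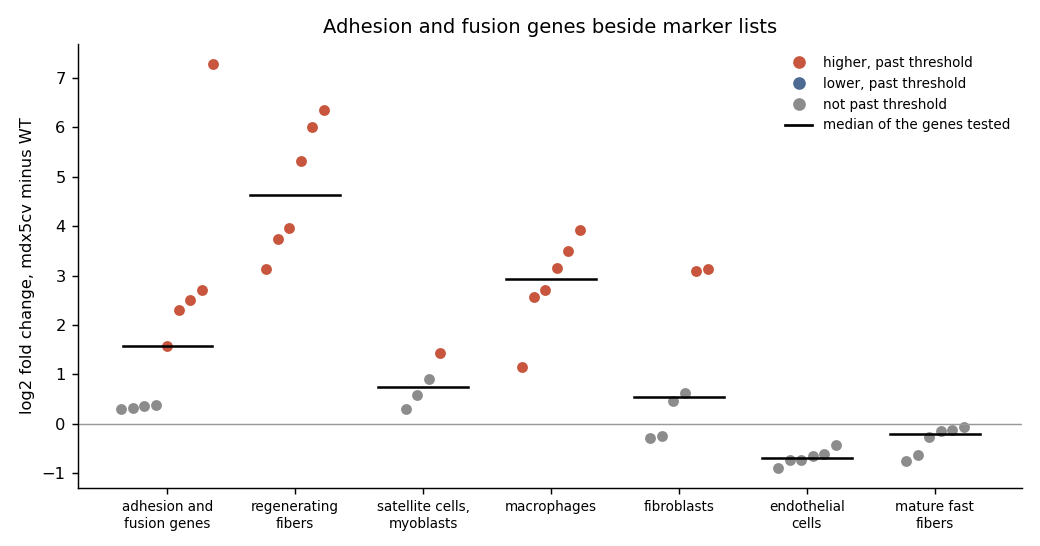
Log2 fold change (y axis, *mdx5cv* minus WT, limma) of each tested gene of the 9 adhesion and fusion genes and of 6 marker lists, with the call by colour and the median of the tested genes as a black line. The 9 genes lie between 0.31 and 7.28, all regenerating fiber and macrophage markers are past the threshold, and the endothelial median is -0.70.

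For each of the 9 genes the most similar profile was sought among 7641 genes with means of 100 or more, as the smallest root mean square difference of log2 deviations from the WT mean over the 8 muscles. *Mymk* was nearest to *Mmp12*, a metalloelastase, at 0.493, the largest of the 9 distances. *Cdh2* was nearest to *Ccdc141* (0.140), *Ncam1* to *Soat1* (0.143), *Vcam1* to *Vsir* (0.174) and *Alcam* to *Lhfpl2* (0.215). *Cdh15* was nearest to *Wsb1* (0.162), *Cdon* to *Slc20a1* (0.0573), *Boc* to *Arf6* (0.117) and *Dock1* to *Hif1a* (0.0534). These are descriptions of likeness over the 8 muscles.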

How the data were processed

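RNA-seq of 4 WT and 4 *mdx5cv* TA muscles was analysed. For each gene the authors deposited a signal in the form of normalized counts (reads over the size factor of the sample). Per the submitters' processing notes, FastQC, Trim Galore 0.6.4, STAR 2.6.0c, SAMtools 1.9, featureCounts, MultiQC 1.6, DESeq2 1.26.0 and R 3.6.2 were used with mm10. The annotation release and the strand setting are not given in the sources used here. Whole reads were recovered from 100% of the values above 0 (tolerance 0.001 reads), and the size factors (0.873 to 1.25) equalled recomputed median-of-ratios factors. Each column was matched to a sample by its label, and 0 columns were left unused. Replicates differed beyond sampling noise (chi-square over its degrees of freedom, 8.59 to 38.4), so each was counted.

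The members and gene lists were chosen with earlier results of these data known. The test was limma 3.58.1 (R 4.3.3; lmFit, and eBayes with a variance trend) on log2(normalized count + 1), two-sided, with Benjamini-Hochberg adjustment over 13677 genes whose mean was 10 or more, without covariates. The threshold (adjusted p under 0.05, absolute log2 fold change of 1 or more) is one the study's methods state for other RNA-seq, not for these muscles. Gene pairs were compared by an exact permutation test on log2 ratios, with 1 added to each normalized count. Intervals on counts are exact and cover counting error only. Scripts were tested on simulated data. A further marker list is not reported here. The genes named are the 9 members, the 3 largest changes past the threshold in each partner list, 12 genes set in the rule (*Mymx*, *Adam12*, *Itga4*, *Itgb1*, *Jam2*, *Jam3*, *Neo1*, *Gas1*, *Elmo1*, *Dock5*, *Pax7* and *Pecam1*), markers of lists that move with a member, *Dmd*, and the nearest gene by profile. *Anxa1*, *Anxa5*, *Cd9*, *Ptgfrn*, *Stab2*, *Ctnna1*, *Ctnnb1*, *Ctnnd1*, *Jup*, *Cd6*, *Shh*, *Ihh*, *Dhh* and *Rac1* were named after their values were seen. Of 2 genes with the symbol *Arhgap26*, the one with the higher mean was used.

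Alternatives changed the pseudocount (0.1 or 10), the filter (none, or 10 normalized counts in each muscle), the scaling (TMM, equal totals or median centring), the variance trend (none), the block (the replicate number), the samples (each replicate left out) and the tool, with edgeR 4.0.16 (quasi-likelihood) and DESeq2 1.42.0 on recovered reads. Coordinates and exon lengths are from GENCODE M21 (GRCm38), matched by gene ID. Promoter windows are from RefSeq (GRCm38.p6), matched by symbol for 4 of 9 members. Other steps ran in Python 3.11.15 (scipy 1.17.1, pandas 2.3.3, numpy 2.4.6), and plots in matplotlib 3.10.9.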

Additional observations from a re-analysis of the deposited data

Results flagged for a closer look

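Each value was set against the others of its group of 4 muscles, and it was singled out where its gap to the nearest muscle exceeded Dixon's 95% critical value as a share of the group's range. Of 86 sets tested 5 passed, and chance flags about 1 in 20, or 4.3 sets here. WT replicate 4 had a log2(normalized count + 1) of 1.04 for *Mymk*, from 1 read, and the other WT muscles had 0. With the others tied at 0, any read in that muscle would have been flagged, so this flag shows only that read. WT replicate 1 had a log2 value of 6.00 for *Ncam1*, below the 6.45 to 6.49 of the other WT muscles. *mdx5cv* replicate 3 had a log2 value of 4.66 for *Itgb7*, below the 5.61 to 5.67 of the other *mdx5cv* muscles. The summed normalized count of the regenerating fiber markers was 126 in WT replicate 2, below the 159 to 164 of the other WT muscles. The summed normalized count of the mature fast fiber markers was 618230 in *mdx5cv* replicate 4, below the 896725 to 932830 of the other *mdx5cv* muscles.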

How the results depend on the processing

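The 170 fold changes of the 9 genes under 19 alternatives kept their direction and their side of the threshold, and the members past the threshold stayed at 5 higher and 0 lower, except that the stricter filter (10 normalized counts in each muscle) left *Mymk* untested and 4 higher. Genes higher past the threshold (1414) numbered 2255 with equal totals, 2202 with no filter, 729 with the stricter filter, and 1216 to 1470 with single replicates left out. Genes lower (447) numbered 209 with equal totals, 275 with the stricter filter and 379 to 521 with single replicates left out. Partner genes higher (13) numbered 8 with the stricter filter and 12 to 13 with single replicates left out. Partner genes lower (4) numbered 1 with equal totals, 2 with the stricter filter, 2 with a pseudocount of 10 and 2 to 4 with single replicates left out (2 without WT replicate 1 or *mdx5cv* replicate 3). The stricter filter tests fewer genes, and the cause of the other shifts was not tested.

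The difference in the log2 ratio of *Cdon* to *Boc* (0.06) reversed to -0.0040 without WT replicate 2 and to -0.0658 without *mdx5cv* replicate 1, with a range of -0.07 to 0.17 over single replicates left out. Those of the other pairs ranged, over single replicates left out, from -2.05 to -1.78 for *Cdh15*/*Cdh2*, -1.19 to -0.83 for *Dock1*/*Dock5*, -0.68 to -0.37 for *Cdh15*/*Pax7* and 2.06 to 2.46 for *Vcam1*/*Pecam1*. With a pseudocount of 10 they were, in the same order, -1.51, -0.76, -0.40 and 2.11. A pseudocount of 0.1 gave -1.97, -0.99, -0.55 and 2.33, so their size rests in part on the pseudocount. The log2 fold change of *Jam3* (0.10) reversed to -0.02 without WT replicate 4 and to -0.0860 without *mdx5cv* replicate 4. It reached 0.25 over single replicates left out and 0.46 with equal totals. That of *Neo1* (-0.12) reversed to 0.24 with equal totals. With the replicate number as a block 1428 genes were higher and 454 lower, and members and partner genes kept their counts (5 and 0, 13 and 4). Same-numbered muscles had deviations that correlated by 0.05, 0.031, 0.072 and 0.146, and differently numbered ones by -0.148 to 0.074. The value of 0.146, between the muscles numbered 4, was the highest of these. The numbers were not taken to pair the muscles in the main fit. Depth limits *Mymk* and *Mymx* in WT, where 1 and 0 reads were counted.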
